A study of Mus musculus with 15 samples.

Results

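The cytokine, chemokine and receptor genes of mouse cumulus cells are described here over 3 stages of oocyte developmental competence. A gene was taken when its symbol in the deposited table began with Ccl, Cxcl, Ccr, Cxcr, Il, Tlr or Csf and a digit, or was Lif, Lifr, Il6st, Osm, Osmr, Cx3cl1 or Cx3cr1. This gave 68 genes, with 82 probes, of the 15059 genes with a symbol in that table. Each gene was followed by 1 probe, the one with the highest mean over the arrays. The 68 genes were 16 chemokine ligands, 5 chemokine receptors, 10 interleukins, their antagonists and the interleukin-induced enzyme Il4i1, 17 interleukin receptor chains, 8 genes of the gp130 family, 6 colony-stimulating factors and their receptors, and 6 Toll-like receptors.

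Cumulus cells, the granulosa-lineage cells that wrap the oocyte, were collected from B6CBAF1/J mice, with 5 arrays per stage. Each array held RNA of a pool from its own group of several mice. The NC1 pools were taken from large ovarian follicles of prepubertal mice at 3 weeks of age, whose unexpanded complexes held developmentally incompetent prophase I oocytes. The C1 pools were taken in the same way from adults at 8 weeks, whose prophase I oocytes were competent, and no hormone is named for either. C2 cells came from expanded complexes flushed from the oviduct of 8-week-old adults after pmsg and hCG, around metaphase II oocytes, and were dispersed with hyaluronidase. Stage cannot be told apart from age in the first step, nor from hormones, the place of collection and the enzyme in the second.

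Chemokines are small secreted proteins that attract cells through G protein-coupled receptors. Interleukins and colony-stimulating factors act through receptor chains that signal by JAK kinases and STAT factors, and the interleukin 6 family shares the signalling chain gp130. Toll-like receptors and the interleukin 1 receptor signal by the adaptor Myd88 to NF-kB. Ovulation has many features of an inflammatory reaction, and expanding cumulus cells are known to make interleukin 6 and to carry Toll-like receptors.

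Levels are given as log2 signal relative to the median of the array, so that a difference of 1 is a 2-fold difference, and they are not compared between genes because each probe has its own brightness. A gene was called measured at every stage when 4 or 5 of the 5 arrays of each stage put its probe well above background. Of the 68 genes, 38 were measured at every stage and were tested with limma at an adjusted p under 0.01 over all 17324 such probes, whereas 30 were not. In the wider fit of the 20844 probes present in at least 1 stage, which was used for the other 30, 2.94% of all probes passed from NC1 to C1, 48.6% from C1 to C2 and 52.4% from NC1 to C2. A fitted change of a gene that some arrays of a stage did not detect rests in part on signal at background there, so its size is imprecise. A gene that entered the wider fit only through a stage where it was high was selected for that difference. Its p-value in that fit is therefore no independent test of the change and is not given below. For those 30 the text gives the number of arrays above background, and a lower bound of the fold where a stage had none. Such a bound compares stage means, depends on the background correction and carries no interval. All bounds and folds rest on scaled signal, and all p-values named below are Benjamini-Hochberg adjusted p from limma. The array named a further 94 genes of these families that are outside the table. Each of these was above background in at most 3 of 5 arrays at any stage, and 54 of them in no array. Among these 94 were partner chains such as Il2rg, Il1rap and Il7r.

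The label of the cells was checked on 10 cumulus and granulosa genes (Foxl2, Amhr2, Fshr, Inha and others), all of which were above background in every array and 8 of which fell from C1 to C2. The arrays had 18368 to 24496 probes above background, with the highest number in C1 replicate 4. In bulk RNA, fewer cells of a type and less RNA per cell cannot be told apart. Markers of other cells moved with stage. The summed linear signal of 13 macrophage and monocyte markers was 4.11 to 7.46 times the array median at NC1, 5.85 to 6.94 at C1 and 6.26 to 14.7 at C2. Itgam supplied 20.3 to 75.3% of that sum, and its level did not pass the test. Of the 10 macrophage and monocyte markers that were tested, 2 rose and 0 fell from C1 to C2 (25.4% and 22.2% of all probes). Without Itgam and Csf1r, which is itself 1 of the 68 genes, the sum was 0.995 to 2.23 at NC1, 1.76 to 3.16 at C1, 9.76 in C2 replicate 1 and 2.57 to 3.76 in the other C2 arrays. The summed neutrophil markers were 0.382 to 0.838 at NC1, 0.402 to 0.880 at C1 and 3.28 to 6.59 at C2, highest in C2 replicate 1, with Mpo and Ngp above background in no array. The markers of any leukocyte summed to 0.329 to 0.558, 0.479 to 0.972 and 2.67 to 3.93, and those of dendritic and antigen-presenting cells to 0.275 to 0.613, 0.882 to 2.12 and 1.93 to 3.73. The lymphocyte markers summed to 1.03 to 1.33 at NC1, 1.13 to 1.48 at C1 and 2.37 to 3.34 at C2. Of the 3 lymphocyte markers that were tested, 1 (Lck) rose at C2, and Cd3d and Cd79a were above background in no array. The markers of oviduct epithelium summed to 6.32 to 8.03 at NC1, 7.25 to 11.9 at C1 and 25.0 to 30.4 at C2, with Pax8 above background in no array. They did not move together, since from C1 to C2, 2 of the 6 that were tested rose and 2 fell. From NC1 to C2, 3 of the 6 rose and 0 fell (26.5% and 24.9% of all probes). The summed theca and stroma markers were 11.1 to 52.9 at NC1, 9.79 to 16.3 at C1 and 0.483 to 0.718 at C2. The highest of these, 52.9 and 33.9, were in NC1 replicates 1 and 2, which also had the highest red blood cell markers (111 and 176, against 18.9 to 29.3 in the other NC1 arrays and at most 11.1 at the later stages) and oocyte markers (37.0 and 29.6, against 8.53 to 14.1 in the other NC1 arrays). The part of these cells in the changes below was not tested.

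**Figure D1:**
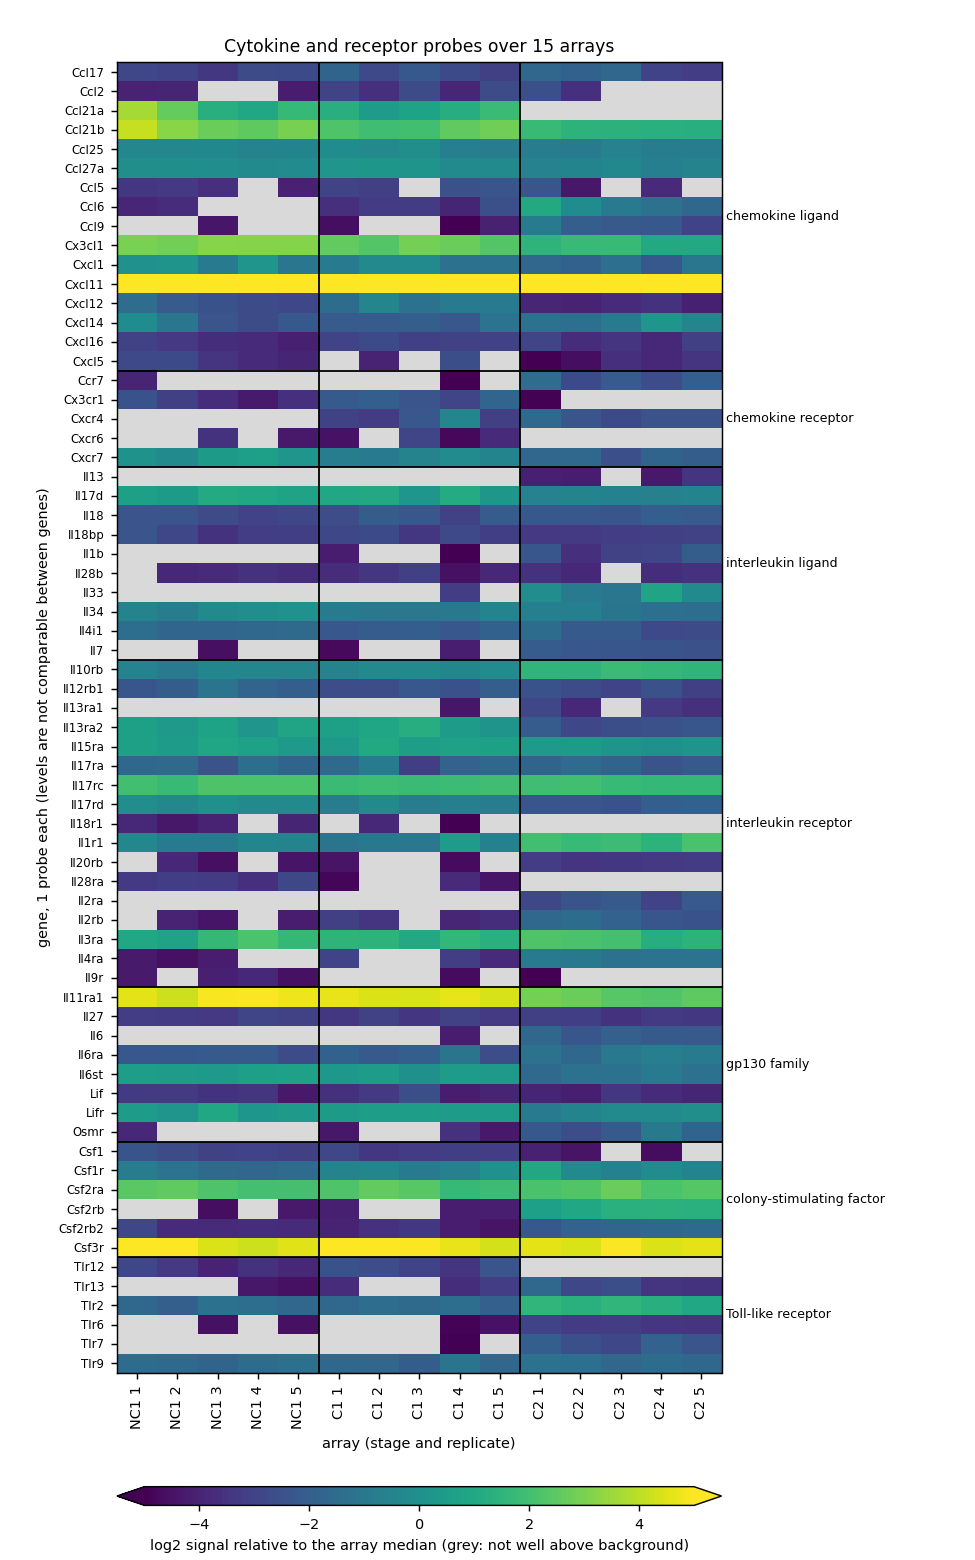
Level of each of the 68 genes (rows, by role) on each of the 15 arrays (columns, by stage), as log2 signal relative to the array median. Grey cells were not well above background and colours are clipped at -5 and 5. At C2 55 genes were above background in all 5 arrays, against 43 at NC1 and 45 at C1.

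From NC1 to C1 the 38 genes measured at every stage changed little, and 1 of them, the chemokine Cxcl12, passed the test (2.63%, against 2.52% of all 17324 probes, of which 1.75% were higher and 0.768% lower). From C1 to C2, 17 of the 38 passed, 5 higher and 12 lower (44.7%, against 47.6% of all probes, of which 25.4% were higher and 22.2% lower). From NC1 to C2, 21 passed, 6 higher and 15 lower (55.3%, against 51.5% of all probes, of which 26.5% were higher and 24.9% lower). The F-test over the 3 stages called 20 (52.6%, against 51.5% of all probes). The share of these genes that passed was thus close to that of all probes in each comparison. Their median change was -0.06 from NC1 to C1 and -0.20 from C1 to C2, against -0.03 and 0.02 over all probes. The split depended on the filter. In the wider fit over all 68 genes, 22 were higher and 17 lower from C1 to C2, and 25 were higher and 21 lower from NC1 to C2. A gene that entered that fit only through a stage where it was high had to differ, so that neither balance is read as a property of the list. It also depended on scaling. With the median of all gene probes as the reference, which moved the median of all valid probes to 0.33 from C1 to C2, 6 were higher and 8 lower between C1 and C2, and 7 higher and 10 lower between NC1 and C2.

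Some genes were detected throughout a stage and never in a different one. In all, 6 of the 68 genes were above background in all 5 C2 arrays and in no NC1 array, namely Il6, Il1b, Il33, Il2ra, Cxcr4 and Tlr7 (8.82%, against 1.38% of the 20855 probes of the table). The reverse pattern, all NC1 arrays and no C2 array, held for Ccl21a, Tlr12 and Il28ra (4.41%, against 2.11% of the probes). Between C1 and C2, Il2ra went from no array to all 5 (1.47%, against 0.316%), and Ccl21a and Tlr12 went from all 5 to none (2.94%, against 1.39%). Between NC1 and C1, Cxcr4 went from no array to all 5 (1.47%, against 0.168%), and no gene went from all 5 to none (against 0.0048% of the probes). These shares set 1 probe per gene against all probes and carry no test. The lower bounds of these genes were smaller with normexp background correction than with the scanner's.

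**Figure D2:**
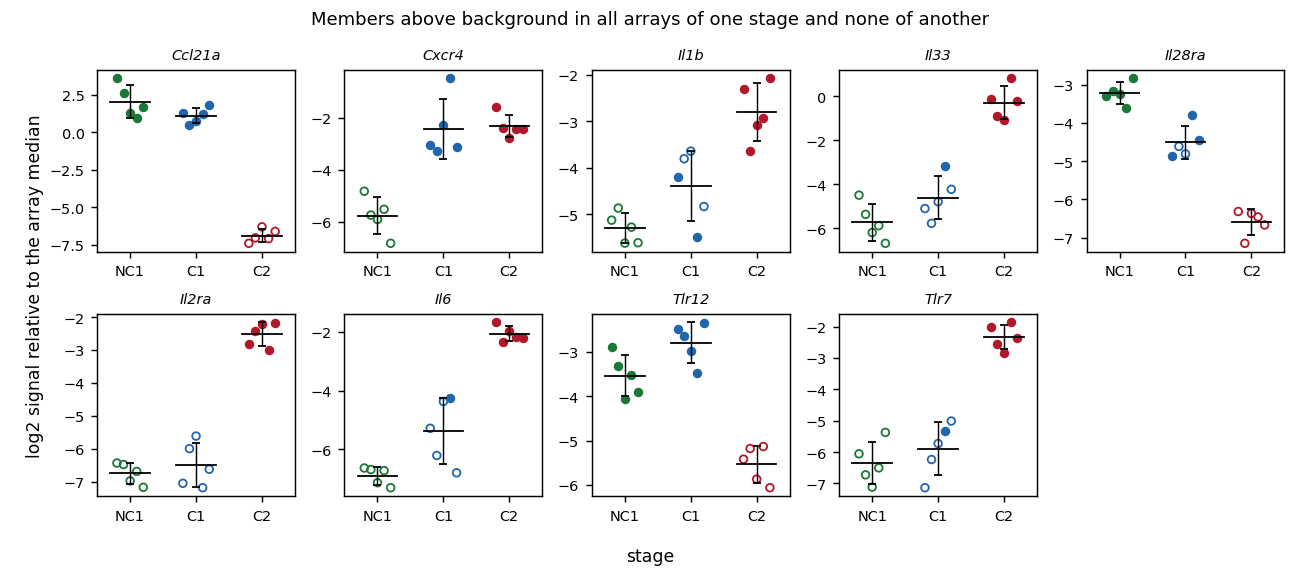
Level of the 9 genes seen in each of the 5 arrays of some stage but in 0 arrays of a different one, as log2 signal relative to the array median. Filled points were well above background and open points were not, and bars give the mean and SD of 5 arrays. At C2 Il6, Il1b, Il33, Il2ra, Cxcr4 and Tlr7 have only filled points, while Ccl21a, Tlr12 and Il28ra have only open ones.

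The sequence just before the start site is shown for the genes that appeared between NC1 and C2 and for Cxcl12, the gene called between NC1 and C1, as the sequences next to these changes. The windows are the 250 bases upstream of the RefSeq start in GRCm38.p6, read 5′ to 3′ on the strand of the gene, and Tlr7 is named only. Il6 lies at chr5:30012864-30013113 (+), Il2ra at chr2:11642542-11642791 (+), Il1b at chr2:129371140-129371389 (-), Cxcr4 at chr1:128592300-128592549 (-) and Cxcl12 at chr6:117168285-117168534 (+). Il33 has a start at chr19:29924863-29925112 (+) and another at chr19:29945540-29945789 (+). Capitals mark matches, on either strand, to a loose NF-kB pattern of G bases, any bases and then C bases. This pattern was found in 45.8% of all 32851 promoter windows, so a match alone does not mark a binding site. Binding of NF-kB at these matches was not tested.
Il6: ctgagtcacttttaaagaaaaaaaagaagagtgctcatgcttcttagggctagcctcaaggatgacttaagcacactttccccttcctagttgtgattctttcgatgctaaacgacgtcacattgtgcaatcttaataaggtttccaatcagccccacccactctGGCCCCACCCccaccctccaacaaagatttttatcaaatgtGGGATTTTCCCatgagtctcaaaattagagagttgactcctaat
Il2ra: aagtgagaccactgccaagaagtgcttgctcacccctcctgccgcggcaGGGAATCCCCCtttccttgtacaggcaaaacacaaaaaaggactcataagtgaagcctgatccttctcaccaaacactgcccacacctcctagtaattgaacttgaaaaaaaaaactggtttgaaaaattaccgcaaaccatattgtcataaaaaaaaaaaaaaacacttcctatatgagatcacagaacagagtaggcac
Il1b: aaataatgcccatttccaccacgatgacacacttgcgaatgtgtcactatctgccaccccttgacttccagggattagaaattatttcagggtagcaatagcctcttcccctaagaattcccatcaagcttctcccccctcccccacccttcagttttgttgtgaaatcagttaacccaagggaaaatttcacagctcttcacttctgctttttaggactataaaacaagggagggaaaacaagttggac
Cxcr4: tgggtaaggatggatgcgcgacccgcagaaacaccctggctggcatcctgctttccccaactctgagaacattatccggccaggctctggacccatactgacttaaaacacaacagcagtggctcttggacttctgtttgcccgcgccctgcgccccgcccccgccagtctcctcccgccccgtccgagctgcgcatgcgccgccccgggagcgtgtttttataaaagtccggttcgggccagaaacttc
Il33, upstream start: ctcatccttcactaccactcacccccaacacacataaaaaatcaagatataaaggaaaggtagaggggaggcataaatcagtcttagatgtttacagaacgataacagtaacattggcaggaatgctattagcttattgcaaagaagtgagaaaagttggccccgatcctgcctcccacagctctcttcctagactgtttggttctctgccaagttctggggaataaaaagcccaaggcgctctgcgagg
Il33, downstream start: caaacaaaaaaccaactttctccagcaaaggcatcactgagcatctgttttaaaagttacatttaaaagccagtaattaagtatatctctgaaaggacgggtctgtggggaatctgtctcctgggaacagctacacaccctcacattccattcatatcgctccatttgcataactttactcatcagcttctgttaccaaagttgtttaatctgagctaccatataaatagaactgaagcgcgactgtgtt
Cxcl12: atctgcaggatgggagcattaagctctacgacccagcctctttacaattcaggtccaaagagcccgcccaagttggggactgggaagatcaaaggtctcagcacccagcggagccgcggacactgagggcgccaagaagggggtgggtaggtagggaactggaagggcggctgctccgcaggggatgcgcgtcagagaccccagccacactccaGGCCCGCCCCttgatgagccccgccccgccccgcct

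The NF-kB matches began 85, 44 and 43 bases before the Il6 start, the last pair overlapping, 201 and 200 bases before the Il2ra start, also overlapping, and 36 bases before the Cxcl12 start. The windows of Il1b, Cxcr4 and Il33 held none. Of the 68 genes, 52 had a window in the table, with 63 windows in all, and 31 of these windows (49.2%) held a match, against 45.8% of all 32851 promoter windows of the same length. The STAT letters TTCNNNGAA were in 4 of the 63 windows (6.35%, against 7.02%), and the cyclic AMP element TGACGTCA in 1 (1.59%, against 1.55%). Neither occurs in the sequences printed above.

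Of 16 ligands, 10 were measured at every stage. From C1 to C2, 4 of these fell (Cxcl12, Cx3cl1, Ccl21b and Ccl27a), none rose and 6 did not pass, where 22.2% of all probes fell and 25.4% rose. From NC1 to C2, 5 fell, the previous 4 and Cxcl1. The median change of the 10 was -0.50 from C1 to C2, against 0.02 over all probes.

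Cxcl12, the ligand of Cxcr4 that holds cells in their niche, had levels of -1.43, -2.15, -2.46, -2.71 and -2.86 at NC1, -1.46, -0.43, -1.28, -0.86 and -0.89 at C1, and -3.92, -4.00, -3.77, -3.55 and -4.12 at C2. All C2 arrays lay below all others, and at NC1 replicate 1 alone lay within the range of C1. Cxcl12 rose 2.52-fold from NC1 to C1 (log2 change 1.34 ± 0.24 SE, adjusted p = 0.0025). It then fell by 2.89 ± 0.24 on the log2 scale at C2 (7.40-fold against C1, adjusted p = 3.2e-08). Its second probe was above background in all NC1 and C1 arrays and in no C2 array, and its change of 0.83 from NC1 to C1 did not pass (adjusted p = 0.12, in the fit of the 20844 probes present in at least 1 stage). The theca and stroma markers also fell from C1 to C2. From NC1 to C1 none of the 5 of them that were tested passed, and their part in the change of Cxcl12 was not tested.

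Cx3cl1, the membrane-bound chemokine also called fractalkine, had levels of 2.98, 2.88, 3.18, 3.14 and 3.15 at NC1, 2.59, 2.31, 2.92, 2.75 and 2.34 at C1, and 1.51, 1.79, 1.79, 1.08 and 1.08 at C2. There was no overlap of C2 with either other stage. It fell by 1.13 ± 0.16 from C1 to C2 (adjusted p = 1.4e-05), while the difference of -0.48 ± 0.16 between NC1 and C1 did not pass (adjusted p = 0.11). Its receptor Cx3cr1, a marker of macrophages and monocytes, was above background in all NC1 and C1 arrays and in 1 C2 array.

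Ccl21a and Ccl21b, near-identical genes for the ligand of Ccr7, gave different readings at C2. Ccl21a had levels of 3.64, 2.66, 1.33, 0.98 and 1.68 at NC1 and 1.27, 0.51, 0.79, 1.23 and 1.80 at C1, and was above background in no C2 array. Its NC1 and C1 means stood at least 115-fold and at least 60.2-fold above C2. Ccl21b had levels of 4.13, 3.22, 2.74, 2.54 and 2.96 at NC1, 2.23, 1.94, 1.99, 2.54 and 2.81 at C1, and 1.76, 1.47, 1.42, 1.34 and 1.31 at C2. From C1 to C2 it fell by 0.84 ± 0.25 (adjusted p = 0.0074), and from NC1 to C2 it fell by 1.66 ± 0.25 (adjusted p = 1.9e-05). The probes can share transcripts of the Ccl21 genes, so that the split between the pair is uncertain. Both were highest in NC1 replicates 1 and 2, the arrays with the highest theca and stroma, red blood cell and oocyte markers, whose part in these values was not tested.

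Cxcl1, a neutrophil attractant, had levels of 0.05, 0.16, -0.83, 0.21 and -1.06 at NC1, -0.87, -0.30, -0.21, -1.25 and -1.26 at C1, and -1.68, -1.90, -1.36, -2.23 and -1.09 at C2. The C2 arrays lay below all NC1 arrays and overlapped C1. It fell by 1.36 ± 0.29 from NC1 to C2 (adjusted p = 7e-04), a call that was lost (adjusted p = 0.0149) when C2 replicates 1, 2 and 3, whose summed oocyte markers of 11.3, 5.83 and 6.34 stood above the 0.559 and 0.662 of the other C2 arrays, were left out as an alternative chosen after seeing the data. Ccl27a fell by 0.56 ± 0.12 from C1 to C2 (adjusted p = 7.3e-04), and of its 3 other probes 2 fell and 1 did not pass.

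Cxcl11 showed how far probes of a gene can differ. The brighter probe was at 7.45 ± 0.08 (SD, n = 5), 7.40 ± 0.24 and 7.34 ± 0.10 at NC1, C1 and C2 and did not pass, whereas the second probe was at 0.97 ± 0.30, 1.02 ± 0.55 and 0.24 ± 0.27 and fell from C1 to C2 by 0.79 (adjusted p = 0.0068). Ccl17, Ccl25, Cxcl14 and Cxcl16 also did not pass in any comparison, with changes from C1 to C2 between -0.44 for Cxcl16 and 1.20 for Cxcl14. Ccl2, Ccl5 and Cxcl5 were above background in 2 to 5 arrays of each stage and did not pass in the fit of probes present in at least 1 stage.

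Ccl6 and Ccl9, chemokines made by macrophages and other myeloid cells, were the ligands that were higher at C2. Ccl6 was above background in 2 NC1 arrays at -3.93 and -3.74, in all C1 arrays at -3.67, -3.27, -3.28, -3.95 and -2.57, and in all C2 arrays at 1.09, -0.15, -0.92, -1.28 and -1.67. Its change from C1 to C2 was 2.76 ± 0.48 (adjusted p = 1.5e-04, in the fit of probes present in at least 1 stage). Ccl9 was above background in 1 NC1 array, 3 C1 arrays and all C2 arrays, at -0.90, -1.97, -2.22, -2.23 and -2.97 in the last. Both were highest in C2 replicate 1, the array with the highest macrophage markers. Among the C2 arrays it also had the highest summed neutrophil, lymphocyte, dendritic and oocyte markers. The other C2 arrays lay above all C1 arrays for both genes. The part of macrophages or of these other cells in these 2 changes was not tested.

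**Figure D3:**
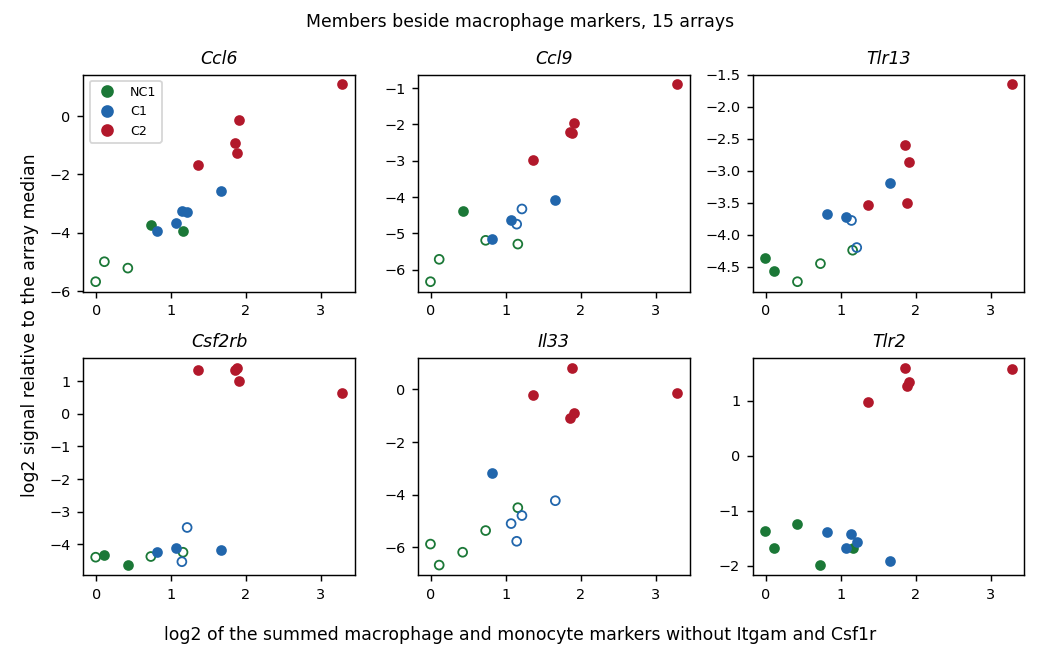
Level of 6 genes (vertical axes, log2 signal relative to the array median) against the log2 of the summed signal of 11 macrophage and monocyte markers (horizontal axes) on the 15 arrays. Filled points were well above background and open points were not. C2 replicate 1, at the right of each panel, is the highest for Ccl6, Ccl9 and Tlr13 but not for Csf2rb, Il33 and Tlr2.

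Among 5 chemokine receptors, Cxcr4 was gained by C1 and kept at C2, whereas Cxcr7 and Cx3cr1 were lower at C2. Cxcr4, the signalling receptor of Cxcl12, was above background in no NC1 array, in all C1 arrays at -3.03, -3.26, -2.28, -0.46 and -3.11, and in all C2 arrays at -1.60, -2.37, -2.75, -2.42 and -2.42. Against NC1 the level was at least 4.92-fold higher at C1 and at least 5.32-fold higher at C2. C1 replicate 4 was the highest, and without it the bound for C1 over NC1 was 1.81 on the log2 scale against 2.30 with it. The C1 and C2 levels overlapped and differed by 0.11 (95% interval -0.89 to 1.12). Cxcr4 RNA was thus above background both at C1, where Cxcl12 RNA was high, and at C2, where Cxcl12 RNA was low. Protein was not measured.

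Cxcr7, the atypical receptor now named Ackr3 that takes up Cxcl12 without G protein signalling, had levels of 0.09, -0.21, 0.45, 0.64 and 0.21 at NC1, -0.74, -0.93, -0.51, -0.17 and -0.49 at C1, and -1.69, -1.63, -2.55, -1.77 and -2.03 at C2. Every C2 value was the lowest of the 3 stages. It fell by 1.36 ± 0.20 from C1 to C2 (adjusted p = 1.5e-05) and by 2.17 ± 0.20 from NC1 to C2 (adjusted p = 6.0e-08). The difference of -0.81 ± 0.20 between NC1 and C1 did not pass (adjusted p = 0.022). Ccr7, the receptor of Ccl21, was above background in 1 NC1 array, 1 C1 array and all C2 arrays, between -2.76 and -1.45 in the last. Of its ligand genes, Ccl21a was seen in no C2 array, while Ccl21b was measured at every stage. Cxcr6, the receptor of Cxcl16, was seen in 2, 4 and 0 arrays of NC1, C1 and C2 and did not pass.

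**Figure D4:**
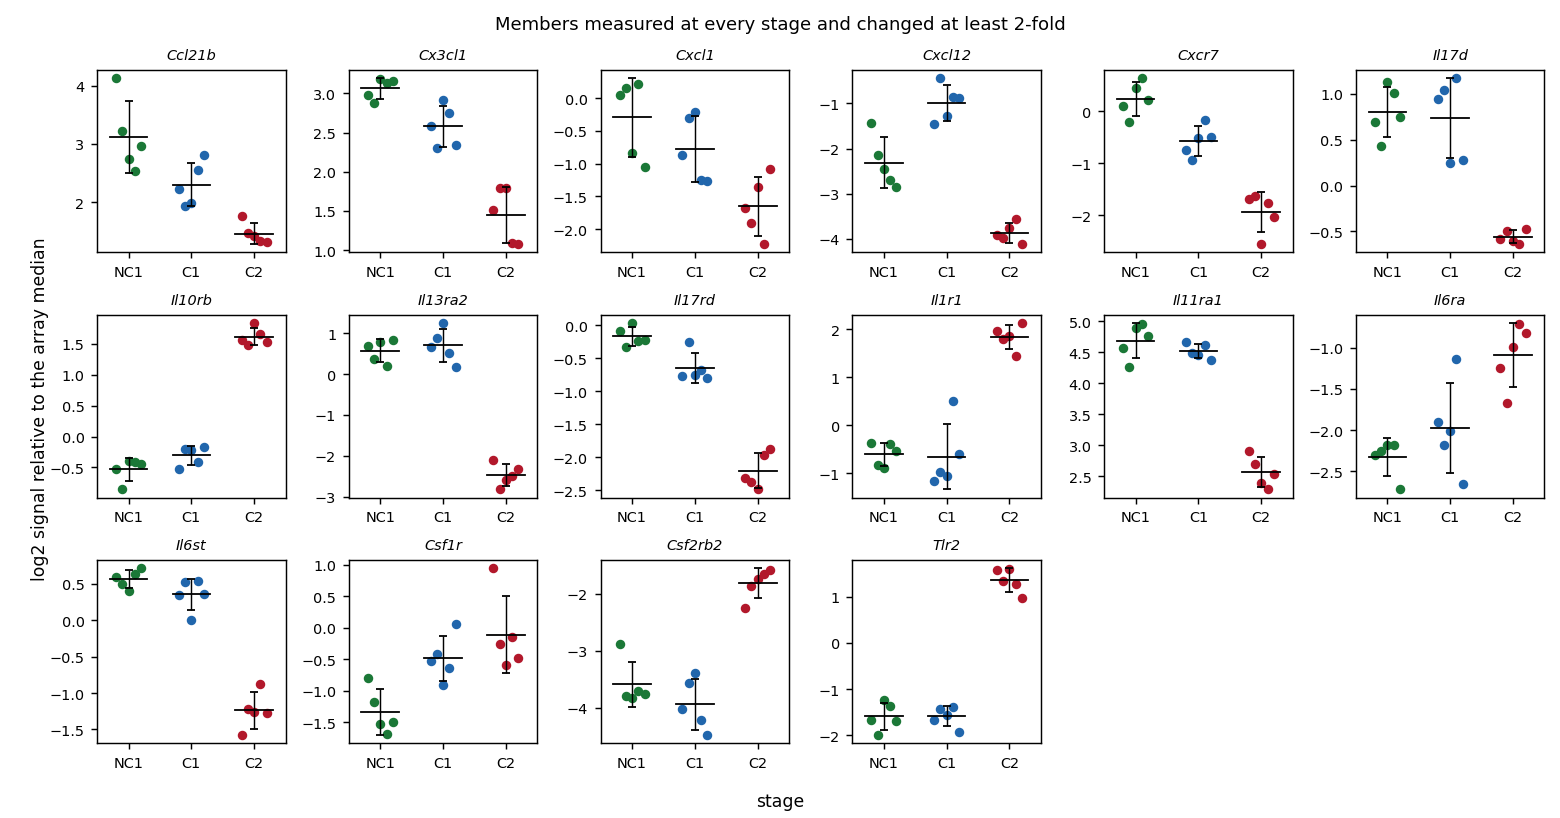
Level of the 16 genes measured at every stage that passed the test with at least a 2-fold change, as log2 signal relative to the array median on each of 5 arrays per stage. Bars give the mean and SD. Cxcl12 is the gene that also differed between NC1 and C1.

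The interleukins that appeared at C2 were Il6, Il1b, Il33 and, in fewer arrays or also seen earlier, Il13 and Il7. Il33, an alarmin of the interleukin 1 family, was above background in no NC1 array, in C1 replicate 4 at -3.18 and in all C2 arrays at -0.12, -0.90, -1.07, 0.82 and -0.22. It was at least 21.5-fold higher at C2 than at NC1, a bound of 4.42 on the log2 scale that was 2.99 with normexp background correction. All C2 arrays lay above all others. Its receptor chain Il1rl1 was outside the table.

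Il1b, the main secreted ligand of Il1r1, was above background in no NC1 array, in 2 C1 arrays at -4.20 and -5.47 and in all C2 arrays at -2.32, -3.64, -3.07, -2.93 and -2.07. It was at least 3.78-fold higher at C2 than at NC1. Il7, a growth factor for lymphocytes, was seen in 1, 2 and 5 arrays of NC1, C1 and C2, with C2 levels between -2.51 and -2.10. Il13, a type 2 cytokine, was seen in 4 C2 arrays and in no other array, and was at least 1.70-fold higher at C2 than at C1.

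Other interleukins fell or did not pass. Il17d, a member of the interleukin 17 family, had levels of 0.69, 0.43, 1.12, 1.01 and 0.75 at NC1, 0.94, 1.03, 0.24, 1.16 and 0.28 at C1, and -0.58, -0.49, -0.61, -0.64 and -0.47 at C2, where all arrays lay below all others. It fell by 1.29 ± 0.18 from C1 to C2 (adjusted p = 1.0e-05), and its second probe fell by 1.13. Il34, the second ligand of Csf1r, fell by 0.73 ± 0.18 and Il4i1 by 0.65 ± 0.20 from NC1 to C2 (adjusted p = 0.0019 and 0.0081). Il18, its binding protein Il18bp and Il28b did not pass, with changes from C1 to C2 of 0.23, -0.24 and 0.03.

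Of 17 interleukin receptor chains, 9 were measured at every stage. From C1 to C2 Il1r1 and Il10rb rose, Il13ra2, Il17rd and Il15ra fell, and 4 did not pass, where 47.6% of all probes passed. From NC1 to C2, 2 rose and 3 fell.

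Il1r1, the receptor of interleukin 1, had levels of -0.37, -0.82, -0.88, -0.40 and -0.53 at NC1, -1.15, -0.97, -1.04, 0.50 and -0.60 at C1, and 1.96, 1.79, 1.86, 1.45 and 2.12 at C2. The C2 arrays lay above all others, and C1 replicate 4 was the highest C1 array. It rose by 2.49 ± 0.25 from C1 to C2 (5.61-fold, adjusted p = 3.0e-07). Il10rb, a chain shared by the receptors of interleukin 10, interleukin 22 and the lambda interferons, had levels of -0.52, -0.85, -0.40, -0.42 and -0.45 at NC1, -0.52, -0.21, -0.21, -0.41 and -0.16 at C1, and 1.55, 1.48, 1.83, 1.66 and 1.54 at C2. It rose by 1.92 ± 0.11 from C1 to C2 (3.77-fold, adjusted p = 6.4e-10), with no overlap. Il28ra, the lambda interferon receptor chain now named Ifnlr1 that pairs with Il10rb, went the other way. It was above background in all NC1 arrays at -3.31, -3.16, -3.24, -3.61 and -2.83, in 3 C1 arrays and in no C2 array. Its level was at least 2.96-fold higher at NC1 than at C2.

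Il13ra2, the decoy receptor of interleukin 13, had the largest fall among the 38 genes measured at every stage. Its levels were 0.69, 0.37, 0.79, 0.20 and 0.83 at NC1, 0.68, 0.88, 1.25, 0.53 and 0.19 at C1, and -2.10, -2.82, -2.60, -2.50 and -2.32 at C2. No C2 array reached the range of the other stages. It fell by 3.17 ± 0.19 from C1 to C2 (9.03-fold, adjusted p = 7.0e-10). The chains of the signalling receptor of interleukins 4 and 13 were at the edge of detection. Il4ra was seen in 3, 3 and 5 arrays of NC1, C1 and C2, with C2 levels of -0.83, -0.94, -1.26, -1.18 and -1.20 above all other arrays. Its change from C1 to C2 was 2.60 ± 0.26 in the fit of probes present in at least 1 stage. Il13ra1 was seen in 0, 1 and 4 arrays. The decoy was thus lower and Il4ra higher at C2.

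Il2ra, the alpha chain of the interleukin 2 receptor, was above background in no NC1 and no C1 array and in all C2 arrays at -2.83, -2.42, -2.21, -2.99 and -2.19. The C2 level was at least 4.59-fold above NC1 and at least 4.84-fold above C1. Its partner Il2rb was seen in 3, 4 and 5 arrays of NC1, C1 and C2, with C2 levels of -1.62, -1.46, -1.87, -2.33 and -2.46 above all others. Its change from C1 to C2 was 1.63 ± 0.20 (adjusted p = 3.6e-06 in the fit of probes present in at least 1 stage). Both chains are also carried by lymphocytes. The summed lymphocyte markers were 1.13 to 1.48 at C1 and 2.37 to 3.34 at C2. Among them Lck rose by 1.52 from C1 to C2, while Cd3d and Cd79a were above background in no array. The part of lymphocytes in these values was not tested.

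Il17rd, also known as Sef, a receptor-like inhibitor of fibroblast growth factor signalling, had levels of -0.09, -0.33, 0.03, -0.24 and -0.23 at NC1, -0.76, -0.25, -0.75, -0.68 and -0.79 at C1, and -2.32, -2.38, -2.49, -1.97 and -1.88 at C2. It fell by 1.56 ± 0.14 from C1 to C2 (adjusted p = 6.7e-08), with no overlap. Il17ra and Il17rc, the receptor chains of interleukin 17, did not pass, with changes from C1 to C2 of -0.10 and -0.06. Il15ra fell by 0.45 ± 0.13 (adjusted p = 0.0091) and its second probe by 1.51. Il12rb1 fell by 0.91 ± 0.20 from NC1 to C2 (adjusted p = 7.1e-04), and Il3ra did not pass. Of the dim chains, Il20rb was seen in 3, 2 and 5 arrays, Il18r1 in 4, 2 and 0, and Il9r in 4, 1 and 1.

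**Figure D5:**
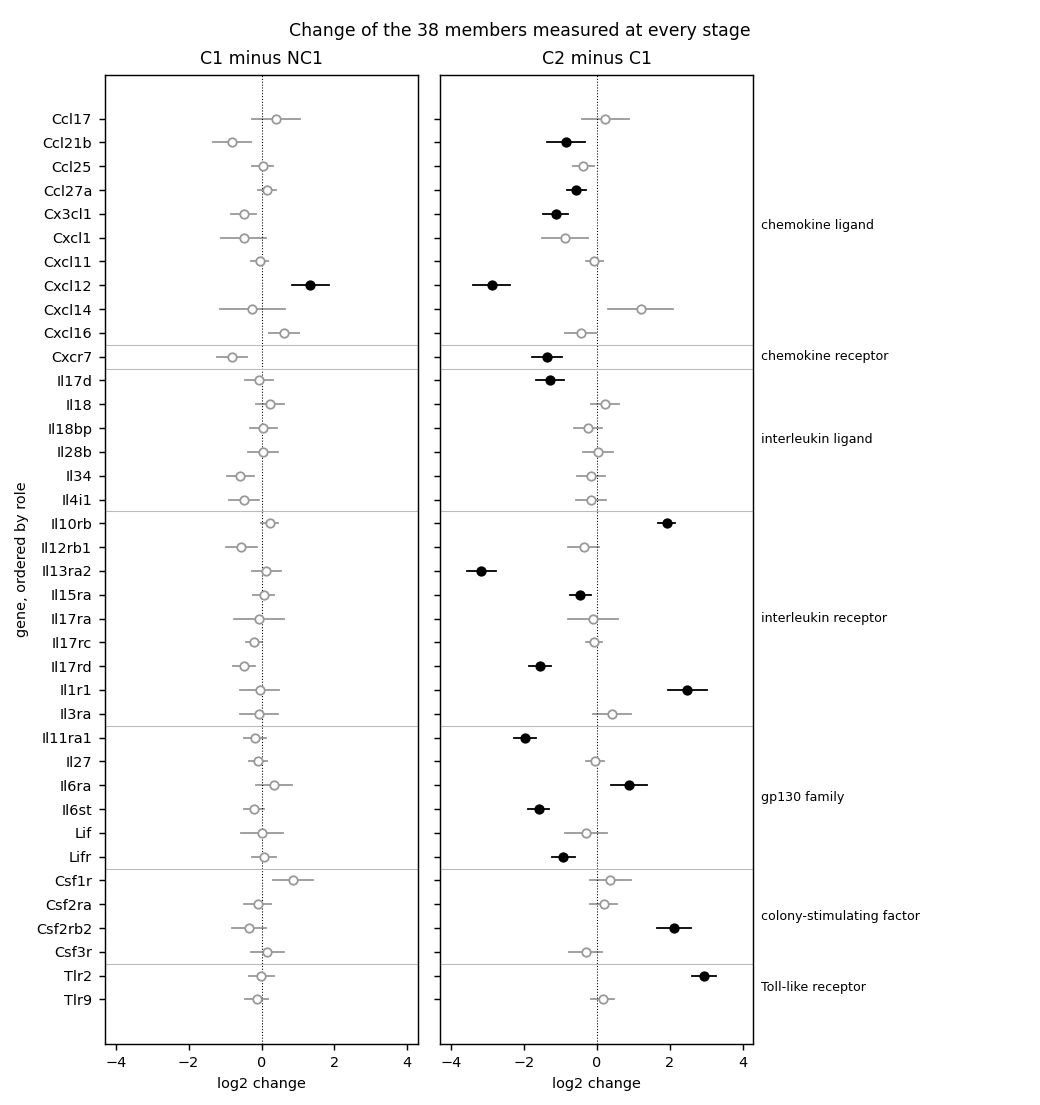
Change in log2 signal of the 38 genes measured at every stage, with its 95% interval, from NC1 to C1 (left) and from C1 to C2 (right). Black points passed the adjusted p threshold and open points did not, and the only black point at left is Cxcl12.

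In the gp130 family the ligand Il6 appeared at C2 while gp130 itself fell. Il6 was above background in no NC1 array, in C1 replicate 4 at -4.25 and in all C2 arrays at -1.67, -2.34, -1.95, -2.17 and -2.20. The C2 arrays lay above all others, and Il6 was at least 6.32-fold higher at C2 than at NC1. Il6ra, the chain that binds interleukin 6, had levels of -2.30, -2.25, -2.18, -2.18 and -2.72 at NC1, -1.90, -2.18, -2.01, -1.14 and -2.65 at C1, and -1.24, -1.67, -0.99, -0.71 and -0.82 at C2. It rose by 0.89 ± 0.23 from C1 to C2 (adjusted p = 0.0038), where C1 replicate 4 lay within the C2 range, and by 1.24 ± 0.23 from NC1 to C2 (adjusted p = 2.1e-04).

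Il6st, which encodes gp130, had levels of 0.59, 0.49, 0.40, 0.64 and 0.71 at NC1, 0.35, 0.52, 0.00, 0.54 and 0.36 at C1, and -1.57, -1.22, -1.26, -0.87 and -1.28 at C2. All C2 arrays lay below all others, and it fell by 1.60 ± 0.13 from C1 to C2 (3.02-fold, adjusted p = 2.8e-08). Il11ra1, the receptor of interleukin 11, had levels of 4.58, 4.25, 4.89, 4.95 and 4.76 at NC1, 4.67, 4.49, 4.45, 4.62 and 4.38 at C1, and 2.91, 2.70, 2.40, 2.29 and 2.53 at C2. It fell by 1.96 ± 0.14 from C1 to C2 (3.89-fold, adjusted p = 7.0e-09). Of the 6 genes of the family measured at every stage, Il6ra rose from C1 to C2, Il6st, Il11ra1 and Lifr fell, and Lif and Il27 did not pass.

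Lifr, the receptor of leukemia inhibitory factor, fell by 0.91 ± 0.15 from C1 to C2 (adjusted p = 8.3e-05) by its brightest probe and by 0.60 by another, whereas another probe rose by 0.42 (adjusted p = 0.0085). Its direction is therefore not settled by these probes. Osmr, the receptor chain for oncostatin M, was seen in 1, 3 and 5 arrays of NC1, C1 and C2, with C2 levels of -2.24, -2.64, -2.20, -0.95 and -1.77. Its change from C1 to C2 was 2.48 ± 0.46 in the fit of probes present in at least 1 stage. Lif was at -3.58 ± 0.43 (SD, n = 5), -3.56 ± 0.64 and -3.85 ± 0.28 at NC1, C1 and C2. Osm, the ligand of Osmr, was outside the table.

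The shared beta chain Csf2rb of the colony-stimulating factor receptors stepped up at C2. Csf2rb, which signals for GM-CSF, interleukin 3 and interleukin 5, was above background in 2 NC1 and 3 C1 arrays, where all levels including those not above background lay between -4.64 and -3.49, and in all C2 arrays at 0.65, 1.01, 1.33, 1.41 and 1.35. Its change from C1 to C2 was 5.26 ± 0.18 in the fit of probes present in at least 1 stage, which it entered through C2 alone. Its dimmer probe changed by 1.71. Csf2rb2, the mouse paralog that is specific for interleukin 3, had levels of -2.89, -3.78, -3.82, -3.70 and -3.76 at NC1, -4.02, -3.56, -3.39, -4.21 and -4.47 at C1, and -2.24, -1.86, -1.75, -1.66 and -1.57 at C2. It rose by 2.11 ± 0.22 from C1 to C2 (4.33-fold, adjusted p = 3.7e-07). A second Csf2rb2 probe, seen in 2, 1 and 5 arrays of NC1, C1 and C2, changed by 3.32. Both genes were lowest in C2 replicate 1 among the C2 arrays, the array with the highest macrophage markers, and the part of macrophages in their rise was not tested. The paralogs are near-identical, and how the signal divides between them is uncertain.

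Of the alpha chains that pair with the shared beta chain, Csf2ra and Il3ra did not pass, and Il5ra was outside the table. Csf2ra was at 2.25 ± 0.23 (SD, n = 5), 2.15 ± 0.38 and 2.34 ± 0.24 at NC1, C1 and C2, with a change of 0.19 from C1 to C2 (95% interval -0.18 to 0.56), and Il3ra changed by 0.42 (-0.10 to 0.95). Csf3r, the receptor of G-CSF, was at 4.75 ± 0.46, 4.90 ± 0.40 and 4.60 ± 0.20 and did not pass.

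Csf1r, the receptor of M-CSF and a macrophage marker, had levels of -0.79, -1.18, -1.54, -1.70 and -1.50 at NC1, -0.53, -0.41, -0.91, -0.63 and 0.07 at C1, and 0.94, -0.25, -0.59, -0.15 and -0.49 at C2. The C2 arrays lay above all NC1 arrays and overlapped C1. It rose by 1.23 ± 0.26 from NC1 to C2 (adjusted p = 6.0e-04), and its second probe, dimmer and not measured at every stage, changed by -0.47 and did not pass. The highest C2 array was replicate 1, and 9 of the 10 macrophage markers that were tested, Csf1r among them, rose between the same stages (26.5% of all probes rose). Their part in the value of Csf1r was not tested. Its ligand Csf1 was seen in all NC1 and C1 arrays and in 3 C2 arrays. Its change from C1 to C2 was -1.25 ± 0.16 in the fit of probes present in at least 1 stage.

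Among 6 Toll-like receptors, Tlr2 rose, Tlr7 appeared and Tlr12 was no longer seen at C2. Tlr2, the receptor of bacterial lipoproteins, had levels of -1.67, -1.99, -1.24, -1.37 and -1.68 at NC1, -1.68, -1.43, -1.56, -1.38 and -1.92 at C1, and 1.58, 1.34, 1.60, 1.26 and 0.98 at C2. The C2 arrays lay above all others. It rose by 2.94 ± 0.16 from C1 to C2 (7.69-fold, adjusted p = 2.2e-10), with no difference detected between NC1 and C1 (0.00, 95% interval -0.33 to 0.33). Tlr6, the partner of Tlr2 for diacylated lipoproteins, was seen in 2, 2 and 5 arrays of NC1, C1 and C2. Its change from C1 to C2 was 1.39 ± 0.16 in the fit of probes present in at least 1 stage.

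Tlr7, the endosomal receptor of single-stranded RNA, was above background in no NC1 array, in C1 replicate 4 at -5.33 and in all C2 arrays at -2.03, -2.57, -2.84, -1.87 and -2.37. It was at least 5.24-fold higher at C2 than at NC1, and its second probe was seen in 4 C2 arrays alone. Tlr12, a receptor of the profilin of protozoan parasites, was above background in all NC1 arrays at -2.89, -3.32, -4.06, -3.52 and -3.89, in all C1 arrays at -2.47, -2.64, -2.98, -3.49 and -2.35, and in no C2 array. Its level was at least 2.39-fold higher at NC1, and at least 4.02-fold at C1, than at C2. Tlr13, a receptor of bacterial ribosomal RNA, was seen in 2, 3 and 5 arrays and was highest in C2 replicate 1, and Tlr9 did not pass, with a change of 0.16 from C1 to C2. Tlr4, the receptor of endotoxin, was outside the table.

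C1 replicate 4, the array with the most probes above background, was the C1 array that held a signal for Il6, Il33, Tlr7 and Il13ra1, each of which was above background in no other C1 array. C2 replicate 1 had the most probes above background among the C2 arrays (22120, against 18368 to 20796 in the others). Without these 2 arrays, an alternative chosen after seeing the data, 1, 15 and 20 of the 38 genes passed between NC1 and C1, C1 and C2, and NC1 and C2.

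The genes that carry the signal of these receptors were taken as a list of 25 JAK, STAT, SOCS and related genes and 37 genes of the pathway from Toll-like and interleukin 1 receptors to NF-kB. Of the 25, 22 were measured at every stage, and from C1 to C2, 11 of them rose and 5 fell, with a median change of 0.43 against 0.02 over all probes. Of the 37, 29 were measured at every stage, and 17 rose and 1 fell, with a median change of 0.79. Of all probes, 25.4% rose and 22.2% fell. Together 34 of the 51 passed from C1 to C2, which fell to 21 with spike-in probes as the scaling reference, an alternative chosen for this list after seeing the data. That scaling also moved the median change of all valid probes from C1 to C2 to -0.13. From NC1 to C1, 1 of the 22 passed and 0 of the 29.

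Within the JAK and STAT list, Stat5a rose by 1.69, Stat5b by 1.57, Stat6 by 1.34 and Stat3 by 1.14 from C1 to C2, and Jak2 rose by 1.17 while Jak1 fell by 1.94. Among the SOCS genes, Socs3 fell by 1.03 and Socs7 by 0.98, Socs6 rose by 0.51, and Socs4 and Socs5 did not pass. Socs1 fell by 1.73 and Socs2 by 1.43, both of them feedback inhibitors of cytokine receptors. Cish, another such inhibitor and a target of STAT5, was the gene of the list that differed between NC1 and C1, at -2.01 ± 0.19 (SD, n = 5), 0.27 ± 0.62 and 1.21 ± 0.33 at NC1, C1 and C2 (2.28 higher at C1, adjusted p = 1.5e-05).

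Within the NF-kB list, Bcl3 rose by 3.14, Nfkb2 by 2.20 and Relb by 2.02 from C1 to C2, which are subunits and a partner of the non-canonical and regulatory arm, and the adaptors Myd88 and Ticam1 rose by 1.20 and 1.01. Rela rose by 0.95 and its inhibitor Nfkbia by 1.13. Traf6 fell by 0.64, and Irak1, Traf3 and Chuk did not pass. Rel and Irak3 were above background in no array.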

How the data were processed

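Total RNA of 15 pools of mouse cumulus cells was labelled with Cy3 and hybridized by the authors to 1-colour Agilent arrays, with 5 pools at each of the stages NC1, C1 and C2. For each array the authors deposited the output of the scanner software, which gives a background-subtracted intensity for each spot and a flag for spots well above background. The software was Feature Extraction, whose version is 10.7.1.1 in the headers and 10.5.1.1 in the submitters' processing notes. A second file deposited by the authors holds 20855 gene probes as log2 intensity. Of these probes, 20844 were well above background in at least 4 of 5 arrays of a stage.

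Outlier spots were left out, spots of a probe were averaged, log2 was taken, and each array's median over the 17324 probes measured at every stage was subtracted. No gene spot was saturated. The stages were compared with limma (version 3.58.1, R version 4.3.3) in 1 model of all 15 arrays, with 3 two-sided contrasts, a moderated F-test, and p-values adjusted after Benjamini-Hochberg and called under 0.01 after the study's methods. The scripts were tested on simulated data. The number of arrays limits the precision. For a lower bound the bright stage's mean log2 level was set against a floor averaged over the dim arrays, where the floor was the gene's own signal or, if that was lower, the dimmest detected probe of the array.

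Each of the 68 genes is accounted for by role. Values per array are given for genes called between NC1 and C1, for genes called elsewhere with a log2 change of at least 1, and for genes detected throughout 1 stage and never in a different one, with partners where a ligand or receptor needs them. The genes, lists and markers were chosen with earlier results of these data known. Of the 68, 3 have newer symbols in the RefSeq table of GRCm38.p6, from which the promoter windows also came. The alternatives were other scalings (75th percentile or median of all gene probes, quantile, 7 spike-in probes), the deposited log2 table, normexp with offset 50 on median signals, other filters on dim probes, slide or replicate number as a block, the mean of a gene's probes, a minimum fold, a threshold of 0.05, an intensity trend, the methods' one-factor test and leaving out each array.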

Additional observations from a re-analysis of the deposited data

Results flagged for a closer look

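In 9 of 143 groups of 5 arrays, 1 array stood far from the other 4. Chance alone would flag about 5% of the 143 groups. Csf1r was at 0.94 in C2 replicate 1, where the next array was at -0.15. Csf2rb2 was at -2.89 in NC1 replicate 1, with the next at -3.70. Il6ra was at -2.72 in NC1 replicate 5, with the next at -2.30. Lif was at -4.32 in NC1 replicate 5, with the next at -3.55. Il10rb was at -0.85 in NC1 replicate 2, with the next at -0.52. Il17rd was at -0.25 in C1 replicate 2, with the next at -0.68. Il34 was at -0.49 and Cxcl14 at -1.21 in C1 replicate 5, with the next arrays at -0.94 and -1.99. Ccl25 was at -0.58 in C2 replicate 3, with the next at -0.78.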

How the results depend on the processing

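All 29 gene changes of the rule kept their direction under 899 comparisons with an alternative, and 27 kept their side of the threshold throughout. The exceptions were Cxcl12 from NC1 to C1 with no filter on dim probes (adjusted p = 0.0135, change 1.34) and Cxcl1 from NC1 to C2 without C2 replicates 1, 2 and 3 (adjusted p = 0.0149, change -1.36). None of 13 lower bounds reversed in 195 comparisons, and 12 values moved by more than the spread. Of these, 11 came with normexp, where they lay between 0.71 (Tlr12, NC1 over C2, 1.26 otherwise) and 4.96 (Ccl21a, C1 over C2, 5.91 otherwise) on the log2 scale, and 1 came without C1 replicate 4 (Il2ra, C2 over C1, 1.84 against 2.27). Counts moved where more genes were tested. With probes present in at least 1 stage, 3, 39 and 46 of the 68 genes passed between NC1 and C1, C1 and C2, and NC1 and C2, and 45 by the F-test. With no filter the counts were 2, 37, 44 and 42. Between NC1 and C1, 2 genes rather than 1 passed with slide as a block, with a threshold of 0.05 and without C2 replicate 3, and the range on leaving out 1 array was 1 to 2. The ranges on leaving out 1 array were 14 to 17 between C1 and C2, 19 to 21 between NC1 and C2, 19 to 22 by the F-test, 30 to 31 for genes not measured at every stage and 30 to 34 for the signalling list. With spike-in scaling 21 of the 51 signalling genes passed from C1 to C2 rather than 34, 16 higher and 5 lower, and the cause was not tested. The deposited log2 table gave the same splits as the median of all gene probes, 6 higher and 8 lower between C1 and C2. With the replicate block the counts were 1, 16, 20 and 19. Arrays of different stages with the same number had residual correlations of -0.24 to 0.35 (median 0.002). For those with other numbers the range was -0.40 to 0.44 (median 0.04). Between NC1 and C1 the values for equal numbers were 0.07, 0.35, 0.06, 0.34 and 0.34, whereas those with C2 had both signs. Whether pools with equal numbers share more than a number was not tested. Signal over background limits the 30 genes not measured at every stage.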
